A study of Homo sapiens with 21 samples.

Results

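The intronic sites described here are the HNRNPK binding clusters that were found in each of 4 PAR-CLIP libraries, the nuclear and cytoplasmic fractions of parental and *KRT19* KO cells. They were selected by overlap: a cluster of the parental nuclear library annotated as intron was taken when a cluster on the same chromosome and strand in each of the other 3 libraries shared at least 1 nt with it. This left 6570 sites in 2736 genes, 4.87% of the 134883 intronic clusters and 3.28% of all 200387 clusters of the parental nuclear library. Their presence in all libraries was therefore the criterion of choice, and is given as a description only.

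MDA-MB-231, a human cell line from a triple-negative breast cancer, was used either as the parental line or with *KRT19*, the gene of the intermediate filament protein keratin 19, knocked out by CRISPR/Cas9. Whether the KO line came from 1 clone is not given in the sources used here. Both lines received 4-thiouridine (4SU) and ultraviolet light before fractionation, RNase T1 digestion and immunoprecipitation with an anti-HNRNPK antibody, so that crosslinked uridines were read as T-to-C changes. The methods of the study describe the steps after fractionation for the cytoplasmic fraction only. One library was made for each line and fraction, so that no difference between lines or fractions has a replicate check and no test was run.

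HNRNPK is an RNA-binding protein that contacts single-stranded, C-rich RNA through its KH domains and shuttles between nucleus and cytoplasm. Introns are removed from the pre-mRNA in the nucleus, where HNRNPK is known to take part in splice site choice, and intronic RNA that reaches the cytoplasm is carried mostly by transcripts that keep an intron or use an exon that the annotation lacks. A binding cluster in intronic sequence from a cytoplasmic fraction can therefore come from such transcripts or from nuclear RNA in that fraction, which cannot be told apart here. The long nuclear RNAs *MALAT1* and *NEAT1*, looked up after the values were known, did not follow the fractions alike. Clusters of *NEAT1* held 789 and 1092 reads per 1000000 reads in clusters (RPM) in the parental and *KRT19* KO nuclei and 226.4 and 204 in the cytoplasms, whereas clusters of *MALAT1* held 888 and 548 in the nuclei and 1229 and 842 in the cytoplasms.

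The sequences of the sites with the highest levels in all 4 libraries are printed first. They were ranked by the lowest of their 4 levels, with 1 site per gene, and run 5′ to 3′ on the RNA strand as DNA letters of GRCh37. Capitals mark the HNRNPK motif, here any of the 6 words UUCCC or UCCCC or UACCC or AUCCC or ACCCC or AACCC, with T printed for U, and the intron numbers follow 1 transcript of the GENCODE v44 annotation lifted to that build.
*DDX17*, chr22:38887235-38887269, minus strand, intron 11 of 11: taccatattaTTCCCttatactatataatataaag
*ANXA2*, chr15:60687537-60687568, minus strand, intron 2 of 5: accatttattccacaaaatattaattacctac
*C16orf72*, chr16:9199765-9199802, plus strand, intron 3 of 3: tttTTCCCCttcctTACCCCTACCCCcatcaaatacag
*MBNL1*, chr3:152033072-152033129, plus strand, intron 1 of 2: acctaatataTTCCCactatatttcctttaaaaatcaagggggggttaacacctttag
*TEAD1*, chr11:12887255-12887288, plus strand, intron 4 of 11: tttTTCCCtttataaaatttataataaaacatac
*COA1*, chr7:43761209-43761248, minus strand, intron 1 of 5: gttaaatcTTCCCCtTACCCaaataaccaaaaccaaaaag
*CSNK2A2*, chr16:58196940-58196966, minus strand, intron 7 of 7: tatctctctcccacctccttttATCCC
*MYOF*, chr10:95123030-95123065, minus strand, intron 26 of 52: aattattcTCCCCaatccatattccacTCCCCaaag
*GMPS*, chr3:155595276-155595315, plus strand, intron 1 of 15: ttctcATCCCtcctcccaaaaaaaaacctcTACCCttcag
*EIF4B*, chr12:53404098-53404134, plus strand, intron 2 of 5: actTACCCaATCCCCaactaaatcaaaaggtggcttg
*IPO7*, chr11:9436128-9436160, plus strand, intron 5 of 24: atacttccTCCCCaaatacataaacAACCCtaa

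Of these sequences, only that of *ANXA2* held no motif word, and the *C16orf72* site, in the gene that GENCODE v44 names *HAPSTR1*, held the most, with 6 words that overlap each other. Most of the sites hold few G, after which RNase T1 cuts, with the *MBNL1* and *EIF4B* sites as exceptions. The first site of the ranking, in intron 1 of *EXT1*, is named without its sequence.

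Next are the sites whose levels differed most between the fractions in both lines, among 431 members with at least 50 reads in every library. *IRS1* and *NPM1* were, after *CSNK2A2* and *C16orf72*, the highest in cytoplasm relative to nucleus, and the other 4 the lowest.
*IRS1*, chr2:227657772-227657797, minus strand, intron 1 of 1: tctacaaaattctatccttaaccttc
*NPM1*, chr5:170834196-170834230, plus strand, intron 10 of 11: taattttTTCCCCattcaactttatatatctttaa
*SRRM2*, chr16:2819703-2819741, plus strand, intron 2 of 2: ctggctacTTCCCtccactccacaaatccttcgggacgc
*TSPAN4*, chr11:852404-852441, plus strand, intron 1 of 6: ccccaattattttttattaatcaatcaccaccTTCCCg
*ANLN*, chr7:36483950-36483983, plus strand, intron 8 of 8: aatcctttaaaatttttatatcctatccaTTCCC
*XPOT*, chr12:64799043-64799071, plus strand, intron 1 of 24: catttcttctcaaaccttcctcaccatcc

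The sites with the largest differences between *KRT19* KO and parental cells in both fractions, from the same 431, follow. *RBCK1*, *MGME1* and *KCMF1* were among the 4 highest in *KRT19* KO cells, and *HMGA2*, *EFNA5* and *CDH4* among the 4 lowest. *ATAD2*, highest in *KRT19* KO cells, and *DUSP4*, among the lowest, are named without their sequences.
*RBCK1*, chr20:391665-391701, plus strand, intron 1 of 5: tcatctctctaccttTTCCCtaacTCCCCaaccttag
*MGME1*, chr20:17951585-17951619, plus strand, intron 2 of 4: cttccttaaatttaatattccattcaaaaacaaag
*KCMF1*, chr2:85273822-85273853, plus strand, intron 5 of 6: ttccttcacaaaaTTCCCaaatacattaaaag
*HMGA2*, chr12:66228598-66228635, plus strand, intron 2 of 3: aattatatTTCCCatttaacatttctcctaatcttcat
*EFNA5*, chr5:106863308-106863346, minus strand, intron 1 of 3: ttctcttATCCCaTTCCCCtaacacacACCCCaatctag
*CDH4*, chr20:59922470-59922505, plus strand, intron 2 of 15: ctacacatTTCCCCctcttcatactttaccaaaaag

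Last are the 4 sites with the highest levels within 100 nt upstream of an annotated 3′ splice site.
*HELLS*, chr10:96343653-96343690, plus strand, intron 12 of 22: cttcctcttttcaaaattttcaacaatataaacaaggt
*DNAJC9*, chr10:75003354-75003406, minus strand, intron 4 of 4: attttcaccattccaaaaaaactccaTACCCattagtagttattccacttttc
*LSMEM1*, chr7:112126356-112126390, plus strand, intron 3 of 5: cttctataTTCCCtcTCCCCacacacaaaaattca
*ALG13*, chrX:110932203-110932231, plus strand, intron 3 of 4: ctcttccattccaatcatattATCCCaac

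Members were 15 to 78 nt long with a median of 30 nt, against 29 nt for the other intronic clusters, and all 6570 sequences match GRCh37 base for base. In 6569 of them each counterpart was annotated as intron too, and 14 overlapped more than 1 cluster of a library. The smallest of a member's 3 overlaps had a median of 25 nt. Just inside the criterion, 1 member had a smallest overlap of 1 nt and 31 had one under 10 nt. Just outside it, 16185 intronic clusters were found in 3 of the 4 libraries, of which 155 had the nearest cluster of the missing library at most 10 nt away and 11 had it directly next to them.

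Recurrence went with read count in the reference library, which is part of what the criterion measures. Of intronic clusters with 5 to 9 reads in the parental nucleus, 1.20% (95% Wilson interval 1.11 to 1.29%) were members, and of those with 100 or more reads 41.2% (38.8 to 43.6%). Among the 1616 intronic clusters with at least 100 reads, 104 were found in no other library. Wilson intervals here and later cover counting error only, and copies of 1 molecule are not independent reads.

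At the members, the median number of reads was 30 in the parental nucleus (quartiles 17 and 56), 26 in the *KRT19* KO nucleus (15 and 44), 29 in the parental cytoplasm (16 and 53) and 21 in the *KRT19* KO cytoplasm (12 and 38). The lowest was 5 in each library, the smallest number a deposited cluster holds, and 463 members had 5 reads in at least 1 library. Libraries held between 3252800 and 6216226 reads in clusters, so levels were compared as RPM. On that scale the median level was 8.48 and 7.99 in the parental and *KRT19* KO nuclei and 5.22 and 3.38 in the corresponding cytoplasms. Members held 9.05% of all reads in clusters in the parental nucleus, 7.39% in the *KRT19* KO nucleus, 5.60% in the parental cytoplasm and 3.90% in the *KRT19* KO cytoplasm. As a share of the reads in intronic clusters alone they held 13.5, 12.4, 13.2 and 16.9% in the same order. Intronic clusters took 67.0, 59.7, 42.3 and 23.0% of the reads in clusters of these libraries.

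T-to-C changes marked 63.1% of the reads at members in the parental nucleus (62.9 to 63.2%), below the 75.6% (75.5 to 75.6%) at the other intronic clusters of that library. In the other libraries the share at members was between 62.4 and 65.3%. Members carried conversions at a mean of 2.98 positions in the parental nucleus, against 1.42 in the other intronic clusters, which had a median of 11 reads.

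A majority of the members held an HNRNPK motif word, and the share was higher the more libraries a cluster was found in. The sequence took no part in the choice of sites. A motif word was present in 3584 of 6570 members, 54.6% (53.3 to 55.8%). Clusters found in the parental nucleus alone had one in 27.1% (26.8 to 27.4%), those found in 2 libraries in 37.6% (37.0 to 38.1%) and those found in 3 in 45.1% (44.4 to 45.9%), and none of these intervals overlap. Genome windows of the same length 100 nt to either side held a word in 10.5% (10.0 to 11.1%) of cases beside members and in 10.8 to 10.9% beside the other classes. The windows were not matched to the clusters in base composition. CCC alone was found in 65.1% of members and 40.6% of clusters found once, and UCCC in 55.1 and 27.9%.

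**Figure D1:**
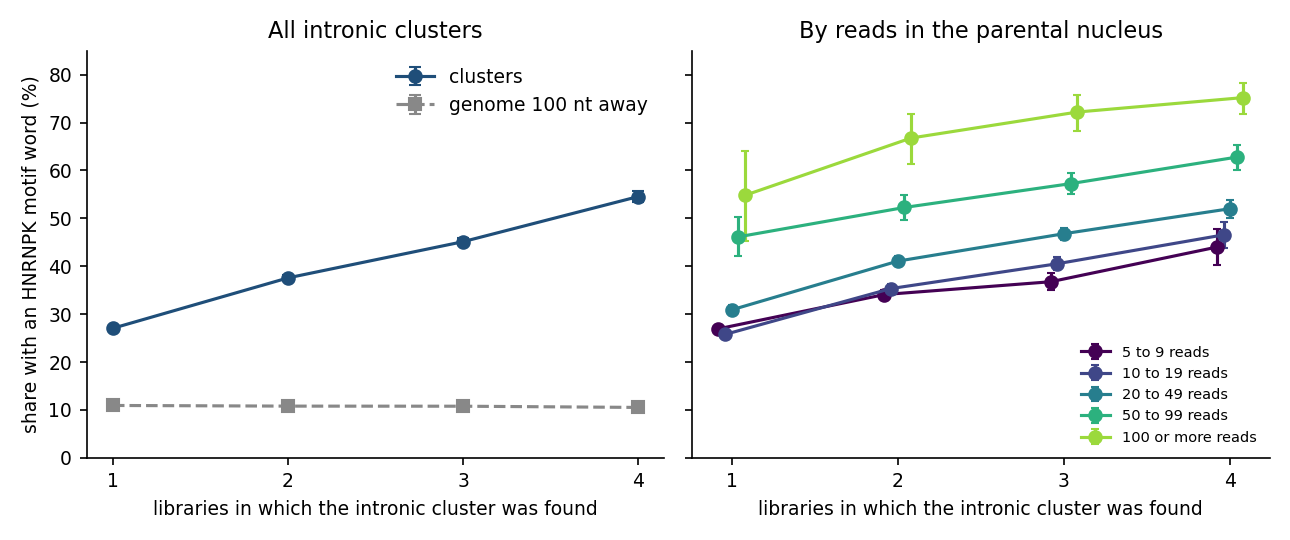
Share of intronic clusters of the parental nuclear library with at least 1 HNRNPK motif word (percent, y axis) by the number of libraries in which the cluster was found (x axis), with 95% Wilson intervals as bars; left, all clusters and the genome windows 100 nt away; right, split by reads in the parental nucleus. The share goes from 27.1% to 54.6% with 1 to 4 libraries while the windows stay between 10.5 and 10.9%, and each read class has its highest share at 4 libraries.

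Clusters with more reads held motif words more often and were also found in more libraries, and the order by number of libraries held in each of 5 classes of read count. Among clusters of 5 to 9 reads the share was 26.9% (26.5 to 27.4%) for those found once and 44.01% (40.3 to 47.8%) for members. Among clusters of 20 to 49 reads it was 30.9% (29.9 to 31.9%) and 52.0% (50.1 to 53.9%). Among clusters of at least 100 reads it was 54.8% (45.2 to 64.0%) in 104 clusters found once and 75.2% (71.8 to 78.4%) in 666 members. Within 1 class of length, clusters of 25 to 29 nt held a word in 27.2% of cases when found once and in 49.9% when members. The share also differed by which libraries held the cluster. Clusters shared by both nuclei and neither cytoplasm had a word in 42.8% (41.9 to 43.8%), those shared with the parental cytoplasm alone in 35.8% (34.9 to 36.6%), and those shared with the *KRT19* KO cytoplasm alone in 33.4% (32.3 to 34.4%), at median read counts of 13, 14 and 14 in the parental nucleus.

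Single words differed in how common they were. UUCCC was found in 28.1% of members, UCCCC in 22.1% and AUCCC in 14.6%, against 11.3, 9.60 and 5.61% of clusters found once. UACCC was found in 7.87% of members, ACCCC in 6.96% and AACCC in 5.51%. Over all words of 5 nt, UCCCC had the highest frequency in members relative to the windows 100 nt away, at 9.31 against 0.923 occurrences per 1000 positions, followed by UUCCC at 11.9 against 1.39 and AUCCC at 5.91 against 0.777. Of the 10 words highest by this ratio, 5 were made of C and U alone.

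Base composition moved in the same order. C made up 31.4% of the bases of members, 29.8% of clusters found in 3 libraries, 28.3% of those found in 2 and 26.3% of those found once. G made up 3.03, 3.13, 4.46 and 11.0%, and U was close to even, at 35.2, 35.9, 36.4 and 34.1%. In the windows upstream, C made up 19.6% beside members and 20.7% beside clusters found once. The last base of the cluster was G in 56.5% (55.3 to 57.7%) of members and 43.7% (43.4 to 44.1%) of clusters found once. How far RNase T1, which cuts after G, bears on the G content was not tested. Nor was its bearing on the share with motif words, none of which holds G, in clusters against windows or between classes.

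**Figure D2:**
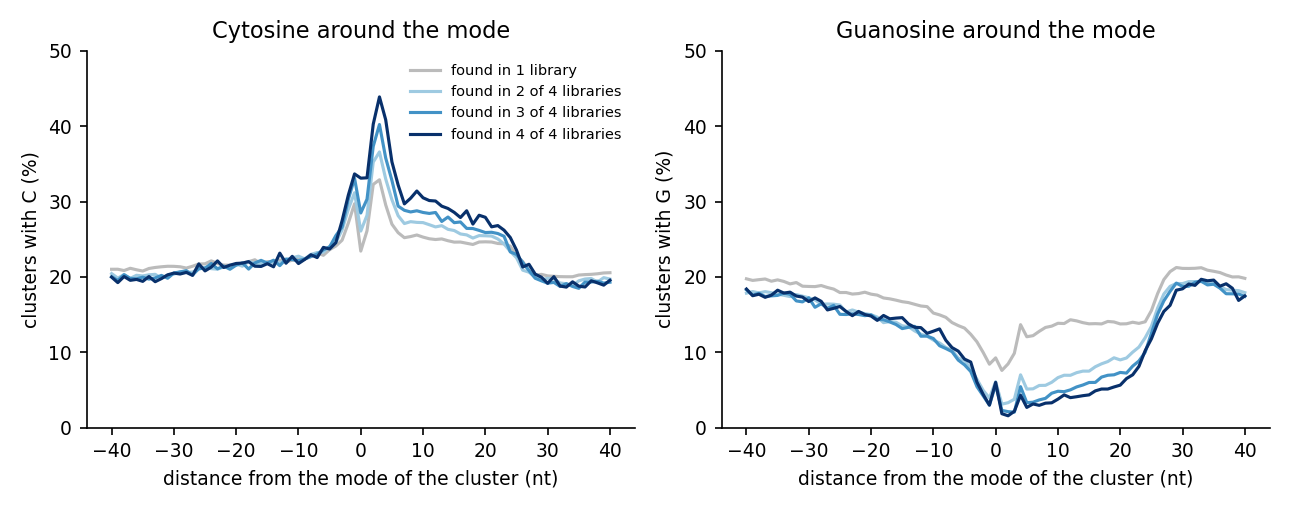
Share of intronic clusters with C (left) and with G (right) at each position from 40 nt upstream to 40 nt downstream of the cluster's mode (percent, y axis), for clusters found in 1, 2, 3 or 4 libraries. C is highest 3 nt downstream of the mode, at 43.9% in members and 32.9% in clusters found once. G stands at 2.19 and 9.88% at that position.

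The mode, the position at which PARalyzer placed the peak of conversions, was followed by C. At 3 nt downstream of it 43.9% of members had C and 2.19% had G, against 32.9% and 9.88% of clusters found once. At the mode itself 41.2% of members had U, 33.1% C, 19.7% A and 6.03% G. The mode was the first base of the cluster in 48.1% of members, with a median distance of 1 nt from the 5′ end, so these profiles are in good part aligned to the starts of the clusters, and the mode cannot be read as the crosslinked base.

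Sites overlapped widely but their ends and modes often differed. The parental nuclear cluster and its counterpart had the same mode in 9.56% (8.87 to 10.3%) of members for the *KRT19* KO nucleus, 14.7% (13.9 to 15.6%) for the parental cytoplasm and 12.8% (12.01 to 13.6%) for the *KRT19* KO cytoplasm. The modes lay within 2 nt in 29.9, 42.0 and 37.9%. The 3′ end was the same in 43.3, 51.6 and 49.6%, and the 5′ end in 39.1, 45.3 and 43.9%. On each of these measures the parental nucleus had more positions in common with the parental cytoplasm than with the *KRT19* KO nucleus. The *KRT19* KO nucleus also had fewer unique reads at the members, with a median of 5 against 7 in the parental nucleus and 10 in each cytoplasm. The part of this in the shared positions was not tested.

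Part of the members lay in sequence that some transcript keeps. Of the members, 421 (6.41%, 5.84 to 7.03%) overlapped an exon of GENCODE v44 on the same strand, against 5.14% (5.02 to 5.26%) of the other intronic clusters. Clusters found in 3 libraries, at 5.94% (5.59 to 6.32%), had an interval that overlaps that of the members. Transcripts of the class retained intron were the most frequent among these, at 295 members. Within 100 nt upstream of a 3′ splice site lay 2.01% (1.70 to 2.38%) of members, below the 2.67% (2.59 to 2.76%) of the other intronic clusters. In clusters found in 3 libraries the share was 1.71% (1.52 to 1.92%), with an interval that overlaps that of the members. The share was 1.10% (0.871 to 1.39%) in clusters of the parental nucleus and both cytoplasms and 4.50% (4.12 to 4.92%) in those of both nuclei and neither cytoplasm. First introns held 33.4% of members (32.2 to 34.5%) and 32.4% of the others (32.1 to 32.7%), a difference inside the interval of the members. The median length of the host intron was 13496 nt for members and 14638 nt for the others. The central 20 nt occurred more than once in GRCh37 for 13.3% of members (12.5 to 14.1%) and 20.1% of the others (19.8 to 20.3%).

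The cytoplasm was next compared with the nucleus of the same line. A read count at a site follows both the amount of that RNA in the fraction and its contact with HNRNPK, which cannot be told apart, and RNA-seq was not analysed here. Since presence in all 4 libraries chose the members, their ratios are described beside those of all clusters of the reference library that had a counterpart. In parental cells the median log2 ratio of cytoplasm to nucleus was −0.72 (quartiles −1.46 and 0.03) at members and −0.65 at all 43305 clusters with a counterpart. In *KRT19* KO cells it was −1.17 (−1.99 and −0.38) at members and −1.01 at all 16395. Intronic clusters with a counterpart outside the members had lower medians than the members, −0.81 in parental and −1.33 in *KRT19* KO cells. Of these clusters 42.9 and 60.9% were over 2-fold lower in the cytoplasm. In parental cells 455 members (6.93%) were over 2-fold higher in cytoplasm, with 10.6% of all clusters, and 2668 (40.6%) over 2-fold lower, with 38.8% of all. In *KRT19* KO cells 350 members (5.33%) were over 2-fold higher, with 13.2% of all, and 3684 (56.1%) over 2-fold lower, with 50.1% of all.

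These directions rest on the scale. With levels scaled to the reads in intronic clusters instead, every parental ratio of cytoplasm to nucleus is 0.66 higher and every *KRT19* KO ratio 1.37 higher on the log2 scale, and the medians at members become −0.06 and 0.21. Then 17.7% of members were over 2-fold higher and 19.3% over 2-fold lower in the parental cytoplasm, with 21.2 and 18.7% of all clusters. In the *KRT19* KO cytoplasm the shares were 24.7 and 15.7% of members and 32.9 and 14.1% of all. The order of sites is the same on both scales.

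**Figure D3:**
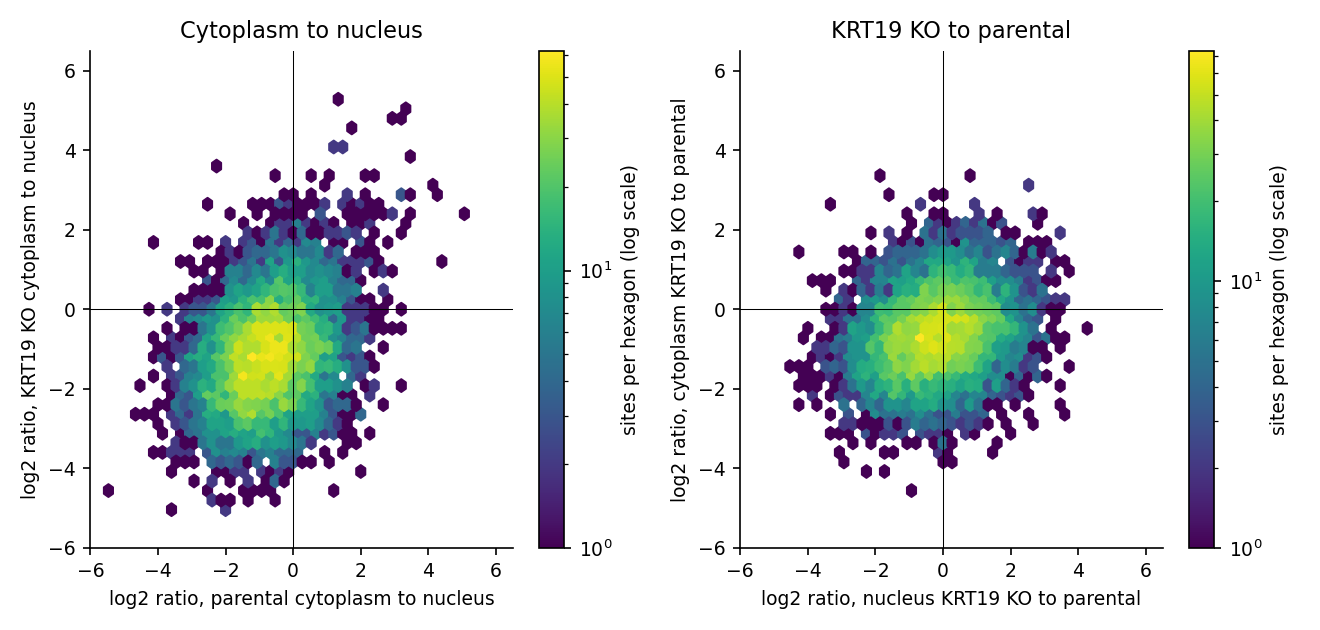
Log2 ratios of RPM at the 6570 members, counted in hexagons (colour, log scale): left, cytoplasm to nucleus, with parental cells on the x axis and *KRT19* KO cells on the y axis; right, *KRT19* KO to parental in the nucleus (x axis) and in the cytoplasm (y axis). Most sites on the left lie below 0 on both axes, with medians of −0.72 and −1.17, and the sites on the right spread around medians of −0.15 and −0.60.

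The ratio in parental cells and the ratio in *KRT19* KO cells come from different libraries, and across the 6570 sites they had a Pearson correlation of 0.30 and a Spearman correlation of 0.26. Across the 431 sites with at least 50 reads in every library the values were 0.52 and 0.43. Sites share the depth of their libraries and, in part, their genes. In both lines 92 members (1.40%) were over 2-fold higher in the cytoplasm and 1775 (27.0%) over 2-fold lower, with 10.1 and 22.6% of the 9889 clusters of any annotation that had both ratios, members included. This imbalance rests on the scale, and by intronic reads 447 members (6.80%) were higher in both and 318 (4.84%) lower, with 18 and 4.19% of all.

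In RPM, the sites lower in both cytoplasms were richer in C than those higher in both. Of the 1775 sites over 2-fold lower, 63.0% (60.7 to 65.2%) held a motif word and C made up 35.7% of their bases. Of the 92 over 2-fold higher, 33.7% (24.9 to 43.8%) held one and C made up 24.8%, below the 51.8% (50.3 to 53.2%) and 29.9% of the other 4703 members. With all members put into 5 equal classes by the mean of both log2 ratios, the share with a motif word was 65.1% (62.5 to 67.6%) in the lowest class, 55.6, 54.7 and 51.1% in the next, and 46.2% (43.5 to 48.9%) in the highest. C went from 36.8 to 26.9% of bases over the classes and A from 25.8 to 34.5%, while U stayed between 34.3 and 35.8%. The windows 100 nt away had a word in 11.2% (10.1 to 12.5%) in the lowest and 9.44% (8.38 to 10.6%) in the highest class. Among the 1990 members with at least 20 reads in every library, the lowest class held a word in 75.4% (70.9 to 79.4%) and the highest in 55.0% (50.1 to 59.8%). Median reads over the classes went from 41.5 to 21 in the parental nucleus and from 17 to 48 in the parental cytoplasm. The part of read number in this order was not tested beyond the minimum of 20.

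**Figure D4:**
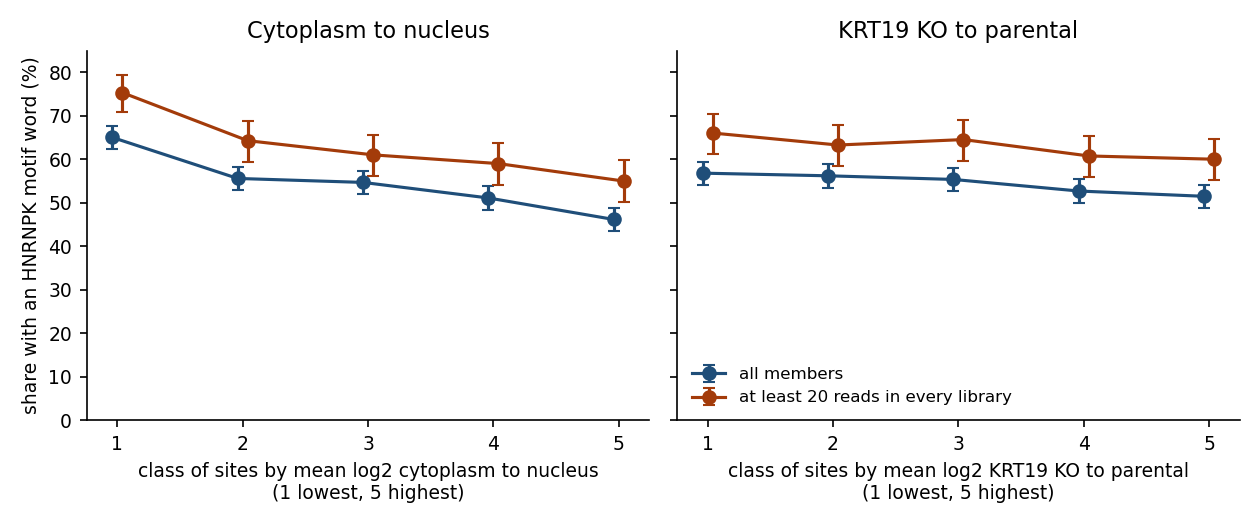
Share of members with an HNRNPK motif word (percent, y axis; bars are 95% Wilson intervals) in 5 equal classes of the sites by the mean of 2 log2 ratios (x axis, 1 lowest, 5 highest), for all members and for those with at least 20 reads in every library. By cytoplasm to nucleus (left) the share goes from 65.1 to 46.2% over all members, and by *KRT19* KO to parental (right) from 56.8 to 51.5%.

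Host introns of these sites were also compared. Sites over 2-fold higher in both cytoplasms overlapped an annotated exon in 14.1% (13 of 92, 8.45 to 22.7%), those over 2-fold lower in 7.15% (6.05 to 8.45%) and the rest in 5.97% (5.33 to 6.69%). Introns under 1000 nt held 8 of the 92 sites, 8.70% (4.47 to 16.2%), 6.03% (5.01 to 7.23%) of the 1775 and 2.64% (2.22 to 3.14%) of the rest. The intervals of the 92 and the 1775 touch for exons and overlap for short introns. In the 5 equal classes, exon overlap was 8.22% (6.85 to 9.83%) in the lowest and 7.23% (5.95 to 8.76%) in the highest. Among members with at least 20 reads in every library it was 10.6 and 6.78%.

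The *CSNK2A2* site, in the gene of a catalytic subunit of casein kinase 2, stood at 50.3 RPM in the parental nucleus and 53.2 in the *KRT19* KO nucleus, and at 325 and 283 in the cytoplasms. Both cytoplasms were thus above both nuclei, with log2 ratios of 2.69 and 2.41. The site overlaps a transcript of the class retained intron. The *C16orf72* site held 60.2 and 62.4 RPM in the parental and *KRT19* KO nuclei, 173 in the parental cytoplasm and 464 in the *KRT19* KO cytoplasm. It overlaps an exon of an annotated protein-coding transcript, so its reads need not come from an intron.

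At *IRS1*, which encodes an adaptor of the insulin receptor, the levels were 20.4 and 15.4 RPM in the parental and *KRT19* KO nuclei and 87.4 and 72.7 in the cytoplasms. The site at *NPM1*, the gene of the nucleolar protein nucleophosmin, held 67.3 and 20.6 RPM in the nuclei and 139 and 77.7 in the cytoplasms. It lies in an intron of 538 nt and overlaps exons of retained intron and nonsense-mediated decay transcripts.

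The opposite order was seen at *SRRM2*, the gene of a scaffold protein of nuclear speckles, with 65.3 and 83.6 RPM in the parental and *KRT19* KO nuclei and 11.0 and 8.37 in the cytoplasms. Its site lies in an intron of 577 nt and overlaps an exon of a retained intron transcript. *TSPAN4*, a tetraspanin gene, had 144 and 114 RPM in the nuclei and 28.8 and 9.81 in the cytoplasms. *ANLN*, which encodes the cytokinesis protein anillin, had 60.5 and 90.4 against 11.9 and 9.01. *XPOT*, the tRNA export receptor gene, had 47.2 and 79.9 against 9.55 and 11.1, at a site overlapping an exon of a protein-coding transcript. In each of these sites both nuclei were above both cytoplasms, and the ratios stayed below 0 under intronic scaling, between −2.16 and −1.47.

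Among the sites high in every library, the *EXT1* site, in the gene of a heparan sulfate polymerase, had the highest lowest level, with 184 and 181 RPM in the parental and *KRT19* KO nuclei, and 285 and 132 in the corresponding cytoplasms. *DDX17*, an RNA helicase gene, had 208, 142, 153 and 97.0 RPM in the parental nucleus, *KRT19* KO nucleus, parental cytoplasm and *KRT19* KO cytoplasm. In the same order *ANXA2*, the annexin A2 gene, had 116, 84.8, 99.3 and 66.3 RPM. The *KRT19* KO cytoplasm was the lowest library at all 3 sites, and the highest was the parental cytoplasm at *EXT1* and the parental nucleus at *DDX17* and *ANXA2*.

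The site at *MBNL1*, the gene of a splicing regulator, had 114 and 141 RPM in the nucleus and cytoplasm of parental cells and 59.6 and 61.8 in those of *KRT19* KO cells. *TEAD1*, which encodes a transcription factor of the Hippo pathway, had 135 and 89.2 RPM in parental and 84.5 and 55.2 in *KRT19* KO cells. At *MYOF*, the myoferlin gene, the values were 217 and 82.9 in parental and 100.2 and 49.7 in *KRT19* KO cells. In each fraction the parental level was the higher at these 3 sites in RPM, but scaled by intronic reads the cytoplasmic log2 ratios of *KRT19* KO to parental became 0.19 at *TEAD1* and 0.14 at *MYOF*.

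*IPO7*, an importin gene, had 180 RPM in the parental nucleus, and 88.5, 43.4 and 47.9 in the *KRT19* KO nucleus and the parental and *KRT19* KO cytoplasms. *GMPS*, which encodes GMP synthetase, had 115, 75.6, 82.1 and 49.2 in the same order. *EIF4B*, a translation initiation factor gene, was highest in the *KRT19* KO nucleus, with 67.6, 102, 53.5 and 48.7. *COA1*, whose product takes part in cytochrome c oxidase assembly, had 129, 108, 56.4 and 52.6, with both nuclei above both cytoplasms in RPM.

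**Figure D5:**
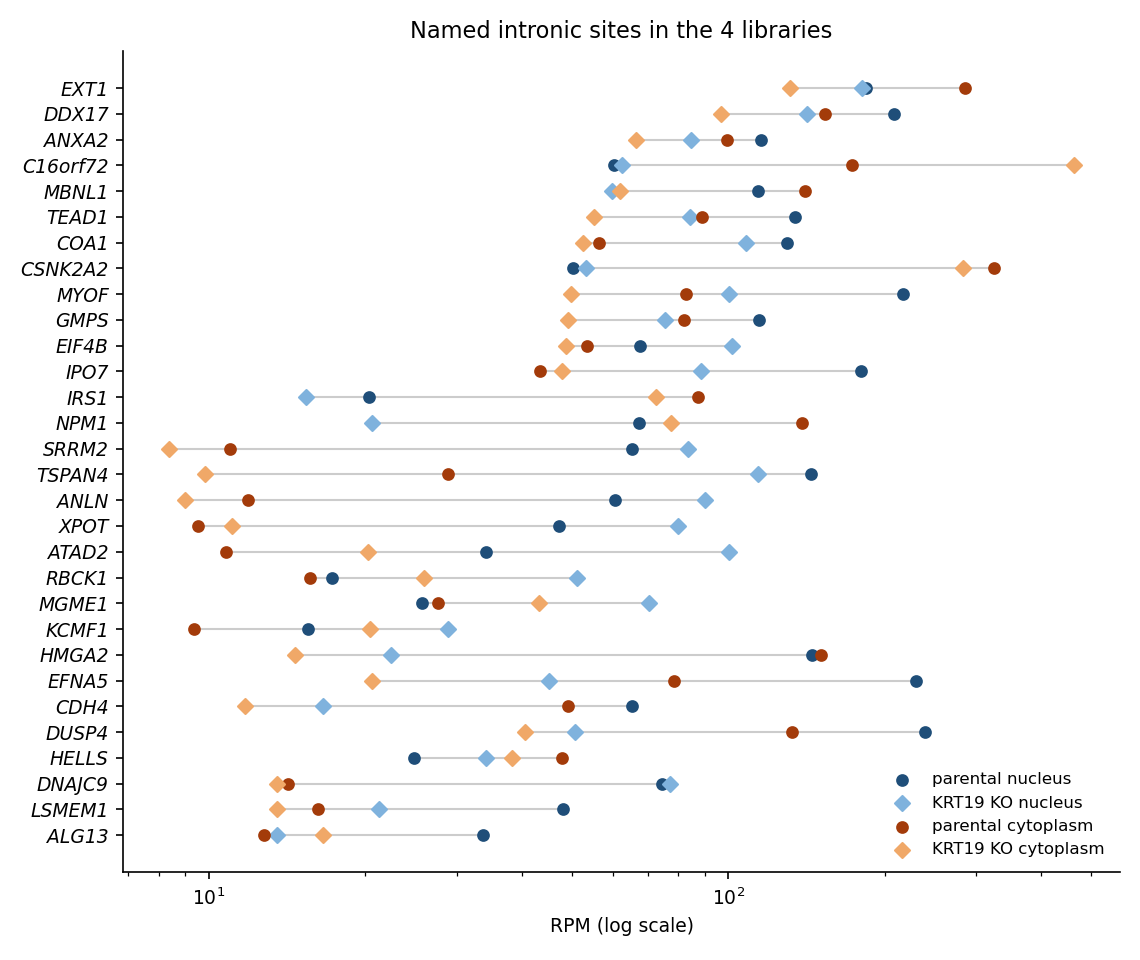
Level of 30 named member sites, 1 per gene, in the 4 libraries (x axis, RPM, log scale); circles are parental and diamonds *KRT19* KO libraries, blue nuclear and orange cytoplasmic, and the grey line spans the 4 values. *CSNK2A2* and *C16orf72* have both cytoplasmic points on the right, *SRRM2*, *TSPAN4*, *ANLN* and *XPOT* both nuclear ones, and *HMGA2*, *EFNA5*, *CDH4* and *DUSP4* both parental ones.

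The *KRT19* KO libraries were then compared with the parental ones. In the nucleus the median log2 ratio of *KRT19* KO to parental was −0.15 (quartiles −1.02 and 0.71) at members and 0.02 at all 37894 clusters with a counterpart. In the cytoplasm it was −0.60 (−1.28 and 0.06) at members and −0.38 at all 19746. At intronic clusters with a counterpart outside the members the median was 0.03 in the nucleus and −0.61 in the cytoplasm, the latter close to the members. In the nucleus 1169 members (17.8%) were over 2-fold higher in *KRT19* KO cells, with 20.7% of all clusters, and 1682 (25.6%) over 2-fold lower, with 20% of all. In the cytoplasm 406 members (6.18%) were over 2-fold higher, with 10.9% of all, and 2244 (34.2%) over 2-fold lower, with 28.2% of all.

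The scale set these directions too. Scaled to the reads in intronic clusters, the ratios are 0.17 higher in the nucleus and 0.88 higher in the cytoplasm, and the medians at members become 0.01 and 0.28. In the nucleus 21.4% of members were then over 2-fold higher and 21.7% over 2-fold lower, with 25 and 16.3% of all clusters. In the cytoplasm the shares were 22.8 and 9.82% of members and 32.3 and 8.13% of all. At all clusters with a counterpart the medians on that scale were 0.19 and 0.50. The nuclear and cytoplasmic ratios, which share no library, had a Pearson correlation of 0.22 and a Spearman correlation of 0.22 across all members, and of 0.34 and 0.31 across the 431 with at least 50 reads. In both fractions 775 members (11.8%) were over 2-fold lower and 115 (1.75%) over 2-fold higher in *KRT19* KO cells, with 9.62 and 3.37% of the 9889 clusters that had both ratios. By intronic reads the order turned, with 227 members (3.46%) lower and 439 (6.68%) higher, and 2.81 and 10% of all. A motif word was present in 56.6% (53.1 to 60.1%) of the 775 and 54.8% (45.7 to 63.6%) of the 115, with overlapping intervals.

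Lowest in *KRT19* KO cells was a site in intron 2 of *HMGA2*, the gene of a chromatin architectural protein. It held 145 and 151 RPM in the parental nucleus and cytoplasm and 22.4 and 14.6 in those of *KRT19* KO cells, that is 512 and 838 reads against 73 and 91. The log2 ratios were −2.69 and −3.37, and −2.52 and −2.49 when scaled by intronic reads. At *EFNA5*, which encodes the ligand ephrin-A5, the levels were 230 and 78.7 RPM in parental and 45.2 and 20.6 in *KRT19* KO cells. *CDH4*, the R-cadherin gene, had 65.3 and 49.2 against 16.6 and 11.7. *DUSP4*, a MAP kinase phosphatase gene, had 239 and 132 against 50.7 and 40.5. Each of the 4 sites was lower in *KRT19* KO cells in both fractions on either scale.

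Higher in *KRT19* KO cells was *ATAD2*, the gene of a bromodomain ATPase, with 34.2 and 10.8 RPM in the parental nucleus and cytoplasm and 100.2 and 20.3 in those of *KRT19* KO cells. *RBCK1*, which encodes a subunit of the linear ubiquitin chain complex, had 17.2 and 15.7 against 51.0 and 25.9. *MGME1*, a mitochondrial exonuclease gene, had 25.7 and 27.6 against 70.4 and 43.3. *KCMF1*, a ubiquitin ligase gene, had 15.5 and 9.37 against 28.9 and 20.4. At these 4 sites both *KRT19* KO levels were above the parental level of the same fraction. The central 20 nt of the *ATAD2* site occur at 2 places in GRCh37.

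Near 3′ splice sites, *DNAJC9*, the gene of a J-domain histone chaperone, had 74.6 and 77.2 RPM in the parental and *KRT19* KO nuclei and 14.2 and 13.5 in the cytoplasms, at a site 76 nt upstream of the splice site in an intron of 323 nt. The central 20 nt of this sequence occur at 2 places in GRCh37. *HELLS*, a chromatin remodelling helicase gene, had 24.9 and 34.1 in the nuclei and 47.9 and 38.3 in the cytoplasms, 54 nt upstream. *LSMEM1*, at 16 nt, had 48.1 and 21.2 against 16.2 and 13.5. *ALG13*, a gene of N-glycan synthesis, had 33.6 and 13.5 against 12.8 and 16.6, at 83 nt. These 4 sites thus had no common order of the fractions. The *ALG13* site overlaps exons of protein-coding and retained intron transcripts, and the *LSMEM1* site an exon of a transcript without a defined coding sequence.

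Of the 2736 genes, 1411 had a single member and 61 had at least 10, which together held 15.98% of the members. *EXT1* had the most, with 78 members among its 441 intronic clusters in the parental nucleus. Of these 75 lay in intron 1 of the annotated transcripts, and 26 had at least 50 reads in every library. *RASAL2*, the gene of a Ras GTPase-activating protein, followed with 40 members of 210 intronic clusters, *EFNA5* with 29 of 239, *HMGA2* with 28 of 219 and *TRIO*, a guanine nucleotide exchange factor gene, with 28 of 270. *LIMCH1*, which encodes an activator of non-muscle myosin, had 27 of 197, *TEAD1* 27 of 165, and *EGFR*, the epidermal growth factor receptor gene, and *FAM155A*, tied in eighth place, 26 of 190 and 26 of 306.

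Summed over its members, *HMGA2* held 1017 and 698 RPM in the nucleus and cytoplasm of parental cells and 436 and 172 in those of *KRT19* KO cells. The sums of *EFNA5* were 691 and 530 against 378 and 165, and those of *EXT1* 3536 and 2452 against 2666 and 1169. *LIMCH1* had 434 and 362 against 262 and 156, *FAM155A* 356 and 253 against 228 and 98.5, and *EGFR* 479 and 230 against 341 and 116. For each of these genes the *KRT19* KO sums were lower in both fractions on either scale. *RASAL2*, by contrast, had 588 and 349 against 602 and 269, with log2 ratios of 0.03 and −0.37 that become 0.20 and 0.51 under intronic scaling. *TEAD1* had 460 and 313 against 518 and 229, and *TRIO* 961 and 469 against 805 and 268.

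The log2 ratios of sites in 1 gene were spread widely. In 47 genes with at least 5 members of 20 or more reads in every library, 400 sites in all, genes accounted for 1.501% of the variance of the log2 ratio of cytoplasm to nucleus in parental cells and 4.73% in *KRT19* KO cells. Without *EXT1* these shares were 0.515 and 4.63%. For *KRT19* KO to parental they accounted for 9.88% in the nucleus and 20.1% in the cytoplasm, and for 10.0 and 20.6% without *EXT1*. The SD within genes was 0.86, 0.91, 0.89 and 0.75 in the order given, against 0.25, 0.30, 0.28 and 0.28 from counting error of reads alone. That error takes all reads as independent. In the parental nucleus the members had a median of 30 reads but 7 unique reads, so it is a lower bound. With 1 library per condition, the spread within genes cannot be told apart from noise of the libraries.

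Gene groups chosen for HNRNPK and breast cancer biology were also examined, with counts over 2-fold on the RPM scale. These counts rest on that scale, as the ratios above do. Over all intronic clusters 4.87% were members, and the groups were not matched to them in read count. Among poly(C)-binding proteins, *PCBP2* had 5 members and *HNRNPK* itself 2, and the group had 10.8% (7 of 65, 5.32 to 20.6%) of its intronic clusters among the members. All 7 were over 2-fold lower in the parental cytoplasm than nucleus, where 38.8% of all clusters were, and 4 of them in *KRT19* KO cells, where 50.1% of all were. The 5 *PCBP2* sites together had 172 and 67.3 RPM in the parental and *KRT19* KO nuclei and 35.8 and 13.996 in the cytoplasms. The 2 *HNRNPK* sites had 54.8 and 18.1 in the nuclei and 13.5 and 15.3 in the cytoplasms. The cytoplasmic log2 ratios of *KRT19* KO to parental of these sums were −1.36 at *PCBP2* and 0.18 at *HNRNPK* in RPM. Scaled by intronic reads they were −0.48 and 1.06.

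Of the other hnRNP proteins, 10 of 27 genes had members, 24 in all or 8.03% (5.45 to 11.7%) of their intronic clusters, with 7 in *HNRNPC*, 4 each in *PTBP2* and *RALY* and 3 in *HNRNPF*. In parental cells 9 of the 24 were over 2-fold lower in the cytoplasm and 2 over 2-fold higher, near the 38.8 and 10.6% of all clusters, and in *KRT19* KO cells 14 and 1, with 50.1 and 13.2% of all. SR splicing factors had 8 members (9.41%, 4.85 to 17.5%), 3 in *SRSF11*, 3 in *TRA2B* and 2 in *TRA2A*. Of these 8, 5 were over 2-fold lower in the cytoplasm of either line, with shares of 38.8% (parental) and 50.1% (*KRT19* KO) over all clusters.

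DNA damage and Fanconi genes had 45 members, 7.88% (5.94 to 10.4%) of their intronic clusters, of which *RAD51B* held 16, *BRIP1* 10, *FANCL* 6 and *FANCI* 5. In the cytoplasm 15 were over 2-fold lower and 4 over 2-fold higher in *KRT19* KO cells, with 28.2 and 10.9% of all clusters, and in the nucleus 11 and 8, with 20 and 20.7% of all. The EGFR and RAS pathway had 55 members (6.23%, 4.82 to 8.02%), 26 of them in *EGFR*, 4 in *NF1* and 3 each in *RASA1* and *SPRED2*. In the cytoplasm 26 of the 55 were over 2-fold lower in *KRT19* KO cells and 0 over 2-fold higher, with 28.2 and 10.9% of all clusters, and in the nucleus 11 and 6, with 20 and 20.7% of all. Over all members the cytoplasmic shares were 34.2 and 6.18%. Summed over members, the cytoplasmic log2 ratios were −0.99 at *EGFR*, −0.37 at *NF1*, −1.78 at *RASA1* and −0.80 at *SPRED2* in RPM. Scaled by intronic reads they were −0.11, 0.51, −0.90 and 0.07.

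Integrins and focal adhesion genes had 46 members (5.05%, 3.81 to 6.68%), among them 18 in *PTK2*, the focal adhesion kinase gene, 9 in *LPP*, 5 in *TNS3* and 4 in *ITGB1*. The 3 sites of *MDM2*, a ubiquitin ligase gene, summed to 24.03 and 24.3 RPM in the parental and *KRT19* KO nuclei. In the cytoplasms they summed to 21.98 and 9.65. In RPM each of the 3 was over 2-fold lower in *KRT19* KO cytoplasm than in the parental one, where 28.2% of all clusters were. The cytoplasmic log2 ratio of their sum was −1.19 in RPM and −0.31 when scaled by intronic reads. Keratins, vimentin and lamins had 0 members among 112 intronic clusters (0%, 0 to 3.32%), where 4.87% of all intronic clusters were members. *EIF4E* had 2 members and *SRC* 1, and *KRT19* had 0 intronic clusters in the parental nucleus.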

How the data were processed

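HNRNPK PAR-CLIP was analysed in 4 libraries, 1 per line and fraction; the 17 RNA-seq samples were not analysed here. Per the methods of the study, the authors demultiplexed reads with bcl2fastq 2.20.0 and cutadapt, collapsed identical reads before adapters and molecular identifiers were removed, aligned them to hg19 and called clusters in each library with PARalyzer inside PARpipe. The labels name hg38 for the RNA-seq; cluster sequences were equal to GRCh37 for 200263 of 200387 parental nuclear clusters, and the other 124 lie on contigs that the reference used here lacks. The authors deposited, per cluster, raw counts of reads, unique reads and T-to-C reads, without normalization. The deposited fraction columns, the mode score and the log10 conversion specificity were not used.

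Here, clusters were overlapped by chromosome and strand (at least 1 nt), reads of counterparts were summed, and levels were scaled to reads per 1000000 reads in clusters (RPM). With 1 library per condition no p-value was computed; over 2-fold counts as different, and shares carry 95% Wilson intervals. Overlap and motif search were tested on simulated data. Members and gene lists were chosen with earlier results of these data known. Named sites are the 12 with the highest lowest level, the 4 highest and 4 lowest by each mean ratio among members of at least 50 reads in every library, and the 4 highest within 100 nt upstream of a 3′ splice site, at most 1 per gene; named genes are those with most members, genes of the study and up to 4 per list; a further gene that this rule covers and 1 of the lists are not reported here. Alternatives changed the overlap, minimum reads, unique reads, motif, scaling, fold and reference library; those leaving out repeated or exonic sequence were added after seeing the data. The scripts ran on Python 3.11.15 with scipy 1.17.1, numba 0.67.0, numpy 2.4.6, matplotlib 3.10.9, pysam 0.24.0 and pandas 2.3.3.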

Additional observations from a re-analysis of the deposited data

Results flagged for a closer look

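At 12 of 60 pairs of ratios the 30 named sites had opposite signs in the 2 lines or in the 2 fractions; with 1 library per condition these differences were not tested. Scaled by reads in intronic clusters, 20 pairs had opposite signs. These were 3 of the 12, both pairs of *ALG13* and that of *IPO7*, and 17 others, so which pairs have opposite signs rests on the scale.

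For cytoplasm to nucleus, the log2 ratios in parental and *KRT19* KO cells were 0.63 and −0.46 at *EXT1*, 0.10 and −0.70 at *MGME1*, 0.061 and −0.62 at *HMGA2*, and −1.40 and 0.29 at *ALG13*.

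For *KRT19* KO to parental, the log2 ratios in the nucleus and cytoplasm were −1.02 and 0.14 at *IPO7*, −1.31 and 0.37 at *ALG13*, 0.59 and −0.13 at *EIF4B*, and 0.36 and −0.39 at *SRRM2*. They were 0.58 and −0.40 at *ANLN*, 0.46 and −0.32 at *HELLS*, 0.080 and −0.20 at *CSNK2A2*, and 0.048 and −0.075 at *DNAJC9*.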

How the results depend on the processing

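The number of sites was 6453 to 6569 under stricter overlap, intronic counterparts or another reference library, 5668 with at least 2 unique reads, 5693 without repeated 20 nt, and 4375 with at least 10 reads in every library. The share with a motif word was 57.6% with at least 10 reads, 57.1% with at least 2 unique reads, 57.0% without repeated 20 nt, 65.1% for CCC alone and 63.6% with 1 site per gene, for which the site with most reads was taken. The C share was 31.6% with at least 10 reads, 33.03% with 1 site per gene and 32.1% without repeated 20 nt. Scaled by reads in intronic clusters, the median ratio of cytoplasm to nucleus was −0.063 in the parental line and 0.21 in *KRT19* KO cells, and that of *KRT19* KO to parental 0.012 in the nucleus and 0.28 in the cytoplasm. On unique reads these medians were −0.79, −1.20, −0.39 and −0.73. With at least 20 reads in each library, where fewer sites enter, they were −1.01 for *KRT19* KO cytoplasm to nucleus, −0.26 for the nuclei and −0.57 for the cytoplasms. Of the 6570 members, 3123, 4034, 2851 and 2650 were past 2-fold in the same order of ratios, and 882, 1724, 765 and 574 past 4-fold. Of the 1990 members with at least 20 reads in every library, 810, 1072, 626 and 621 were past 2-fold. The last counts come from fewer sites. Shares over all clusters past 4-fold or with at least 20 reads are not given here. Leaving out sites on annotated exons moved no value beyond its interval. The alternatives without soft-masked repeats were not run, because the reference used here marks no repeats. No paired analysis was possible because each PAR-CLIP condition has 1 library. Depth limits ratios at sites near 5 reads, and no interval covers variation between experiments.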
